A study of Mus musculus with 10 samples.

Results

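Neurotrophins are small secreted growth factors that keep neurons alive, shape their branches and adjust their synapses. Brain-derived neurotrophic factor (Bdnf) acts mainly through the receptor tyrosine kinase TrkB, encoded by Ntrk2, and neurotrophin-3 (Ntf3) mainly through TrkC, encoded by Ntrk3, while all neurotrophins and their uncleaved precursors can bind the p75 receptor, encoded by Ngfr. Both Trk genes make full-length receptors, which carry the kinase, and truncated receptors, which lack it. In the adult brain truncated TrkB is the main form of astrocytes, and p75 is best known from the cholinergic neurons of the basal forebrain.

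The transcripts described here are those of these 5 genes, taken as every array probe set annotated to one of them. The array holds 11 such probe sets, which read 4 of the 5 genes, out of 12393 genes read in all. Bdnf had 2 probe sets, Ngfr 3, Ntrk2 2 and Ntrk3 4. No probe set was annotated to Ntf3 alone, so Ntf3 was not analysed here. RNA came from the cerebral cortex of 5 male mice labelled *p97FE65* null and 5 male mice labelled *p97FE65* wild type, all 6 months old, with 1 Affymetrix mouse expression array for each mouse. In the null allele the exon of FE65 (Apbb1) that holds the first start codon is lost during RNA splicing. The full-length adaptor protein is therefore lost while the rest of the transcript is still made. The gene was targeted in R1 embryonic stem cells, a hybrid of 2 substrains of another mouse strain. The line was then crossed repeatedly to C57Bl/6J. The study used littermates.

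All values are log2 values made by GC-RMA, in which a difference of 1 is a doubling. The arrays resembled each other closely, with correlations of 0.994 to 0.999 between any pair, and 34.6% of the 22626 probe sets had a mean of at least 5. Probe sets under that mean are called dim here, because small differences near background are measured poorly. The FE65 probe sets read 10.80 to 11.37 and 11.30 to 11.51 on arrays labelled null, against 10.85 to 11.13 and 10.98 to 11.23 on arrays labelled wild type. Both lie outside the missing exon, so they do not read the change in the allele itself. Their averages were higher on arrays labelled null, by 0.11 (SE 0.10) and 0.26 (SE 0.06). The paper reports both as lower in null mice. Under these labels the differences between groups run opposite to the study's own direction, and which label carries which genotype could not be settled. "Labelled null" and "labelled wild type" are therefore used throughout, and each sign holds for the labels only. In bulk cortex, fewer cells of a type and less RNA per cell cannot be told apart.

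The clearest difference among the 11 probe sets lay in Ntrk3, the TrkC gene. Its probe set 1422329_a_at was lower on arrays labelled null, by 0.41 (log2, SE 0.11), or 1.33-fold. Another Ntrk3 probe set, 1425071_s_at, averaged 0.31 (SE 0.14) higher on arrays labelled null, with overlapping groups. The Bdnf, Ntrk2 and Ngfr probe sets differed by 0.10 or less (rounded) in either direction. With Benjamini-Hochberg adjustment over all 22626 probe sets no member passed in limma, with an adjusted p of 0.999 for each, and neither did any other probe set on the array (0%). At an unadjusted limma p under 0.05, 1 of the 11 members was called, the Ntrk3 probe set 1422329_a_at, beside a background of 3.67% of all probe sets in either direction with 2.43% lower and 1.24% higher on arrays labelled null. The same probe set was the 1 member whose labelled groups did not overlap, which held for 0.623% of all probe sets.

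**Figure D1:**
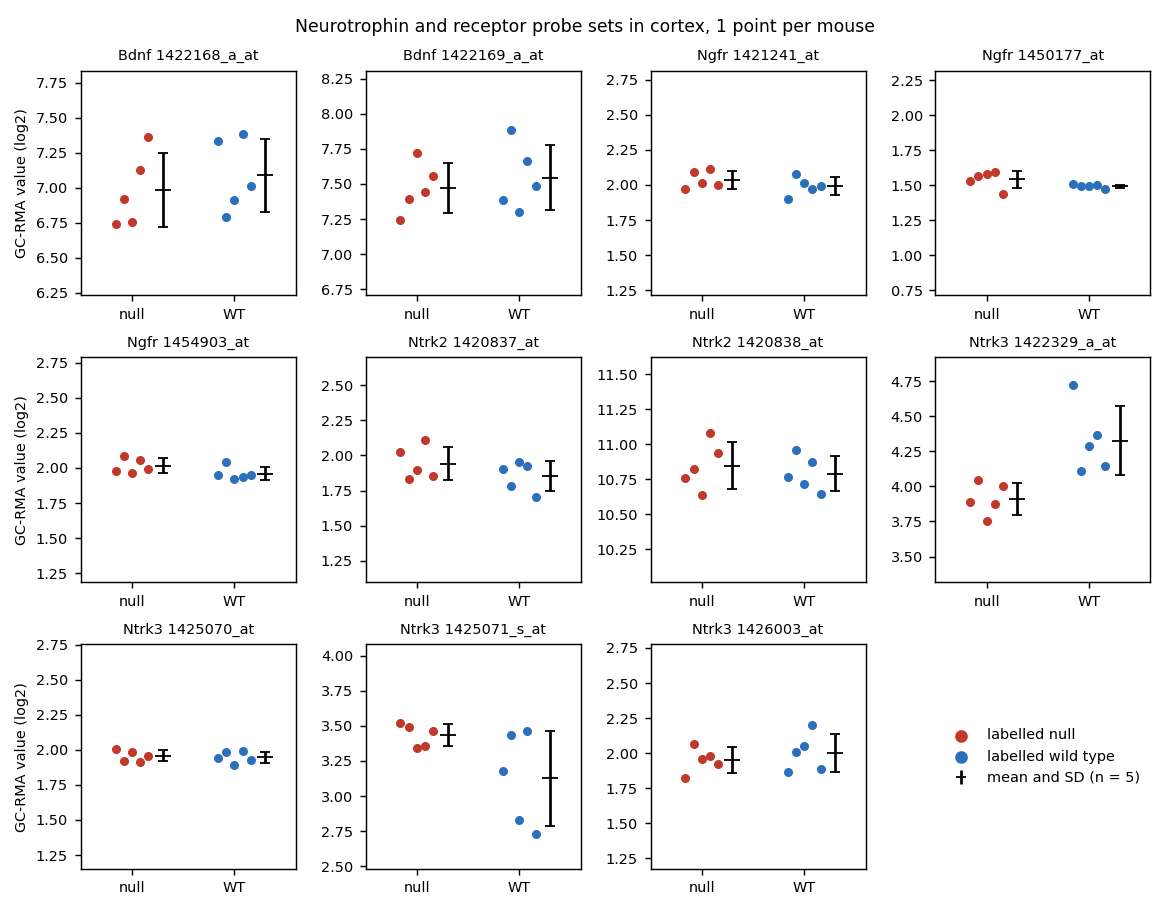
GC-RMA values (log2, vertical axis) of the 11 probe sets in each mouse, arrays labelled null on the left and labelled wild type on the right of each panel, with mean and SD (n = 5 each). Every panel spans the same height on the log2 scale, and only Ntrk3 1422329_a_at shows groups without overlap, at 3.75 to 4.04 on arrays labelled null and 4.11 to 4.72 on arrays labelled wild type.

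TrkC is the preferred receptor of neurotrophin-3 and is made by many cortical neurons. On the 5 arrays labelled null, Ntrk3 1422329_a_at read 3.89, 4.04, 3.75, 3.88 and 4.0, against 4.72, 4.11, 4.29, 4.37 and 4.14 on the 5 labelled wild type. The highest array labelled null thus lay just under the lowest labelled wild type, and array 1 labelled wild type stood above the rest. The means were 3.91 ± 0.11 on arrays labelled null and 4.33 ± 0.25 on arrays labelled wild type (SD, n = 5 each), and the difference of -0.41 had a 95% confidence interval of -0.66 to -0.17. The exact two-sided permutation test gave p = 0.00794, the smallest that 5 arrays against 5 can give. The probe set is dim, although 60.3% of all probe sets on the array had a lower mean.

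Ntrk3 1425071_s_at showed a different pattern of arrays. It read 3.52, 3.49, 3.35, 3.35 and 3.46 on arrays labelled null, against 3.18, 3.44, 2.83, 3.47 and 2.73 on arrays labelled wild type. The arrays labelled null were tightly grouped, whereas those labelled wild type were split between arrays 2 and 4, which lay within the range of the others, and arrays 1, 3 and 5, which lay below it. The means were 3.43 ± 0.08 on arrays labelled null and 3.13 ± 0.34 on arrays labelled wild type (SD, n = 5 each), and the interval of the difference ran from -0.003 to 0.62 (exact permutation p = 0.103). The value depended on single arrays labelled wild type. It was 0.38 without array 2 (limma, unadjusted p = 0.0193) and 0.39 without array 4 (unadjusted p = 0.0154), but 0.23 without array 3 (unadjusted p = 0.126) and 0.21 without array 5 (unadjusted p = 0.123). The other 2 Ntrk3 probe sets were close to the bottom of the scale. Probe set 1425070_at averaged 1.96 ± 0.04 on arrays labelled null and 1.95 ± 0.04 on arrays labelled wild type, and its difference was bounded by -0.07 and 0.09. Probe set 1426003_at averaged 1.95 ± 0.09 on arrays labelled null and 2.0 ± 0.14 on arrays labelled wild type, with a difference of -0.05 (-0.21 to 0.11).

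**Figure D2:**
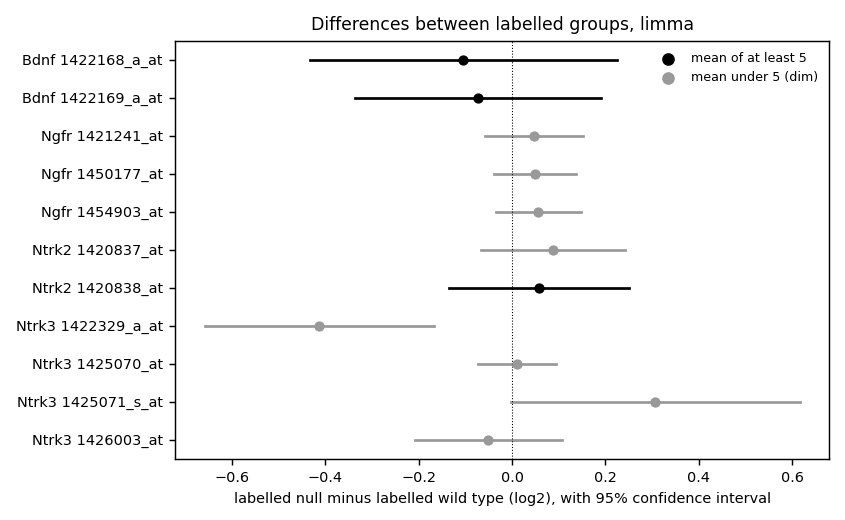
Labelled null minus labelled wild type (log2, horizontal axis) for each of the 11 probe sets, with the 95% confidence interval from limma; black marks a mean of at least 5 and grey a dim probe set. Only the interval of Ntrk3 1422329_a_at, from -0.66 to -0.17, leaves out 0.

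Because Trk genes make several transcripts, probe sets of 1 gene were set against each other within each array. Levels of different probe sets cannot be compared, as each binds its target with its own strength, but the difference between a pair can be compared between groups. Over the 11 pairs of the 4 genes, 4 had an exact p under 0.05, all within Ntrk3, and 3 of these did not overlap between labelled groups. Among all 12821 pairs of probe sets of 1 gene on the array, 3.4% had such a p and 0.616% did not overlap. The 3 pairs without overlap share 1422329_a_at, so they are not separate results.

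The widest of them set 1422329_a_at against 1425071_s_at. The first minus the second was 0.370, 0.553, 0.407, 0.522 and 0.539 on arrays labelled null, against 1.54, 0.672, 1.46, 0.902 and 1.41 on arrays labelled wild type. Every array labelled null lay below every array labelled wild type, and the spread among arrays labelled wild type was wider. The means were 0.48 ± 0.08 on arrays labelled null and 1.20 ± 0.39 on arrays labelled wild type (SD, n = 5 each), a difference of -0.72 (95% interval -1.13 to -0.31, exact permutation p = 0.00794). It stayed between -0.85 and -0.63 with any 1 array left out. Every value of 1425071_s_at lies under 4, so with values under 4 set to 4 the pair cannot be read, and 1422329_a_at alone then differed by -0.32. Of all pairs on the array, 0.0546% differed by more, though after adjustment over all 12821 pairs none passed in limma, and the lowest adjusted p was 0.991. By exact test 436 pairs had an unadjusted p under 0.05. Set against the dimmer 1425070_at, 1422329_a_at differed by -0.42 (-0.72 to -0.13), and against 1426003_at by -0.36 (-0.70 to -0.02), both with an exact permutation p of 0.00794. Without array 1 labelled wild type the last of these was -0.23 (exact permutation p = 0.0238). The pair of 1425071_s_at and 1426003_at differed by 0.36 (0.02 to 0.69, exact permutation p = 0.0317), and lost its call without any 1 of the 5 arrays labelled null (exact permutation p up to 0.103). The suffix _a_at marks probes that match several transcripts of 1 gene. The suffix _s_at marks probes that match several transcripts, which need not all come from 1 gene. Probe set 1425071_s_at is annotated to Ntrk3 alone, and whether it also reads another gene was not tested. The platform annotation lists the same source sequence for 1425071_s_at and 1425070_at. The latter, near the bottom of the scale, differed by 0.01 (-0.07 to 0.09), so it did not show the difference of 1425071_s_at. No source read here says whether a given probe set detects full-length or truncated TrkC, so none was assigned.

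**Figure D3:**
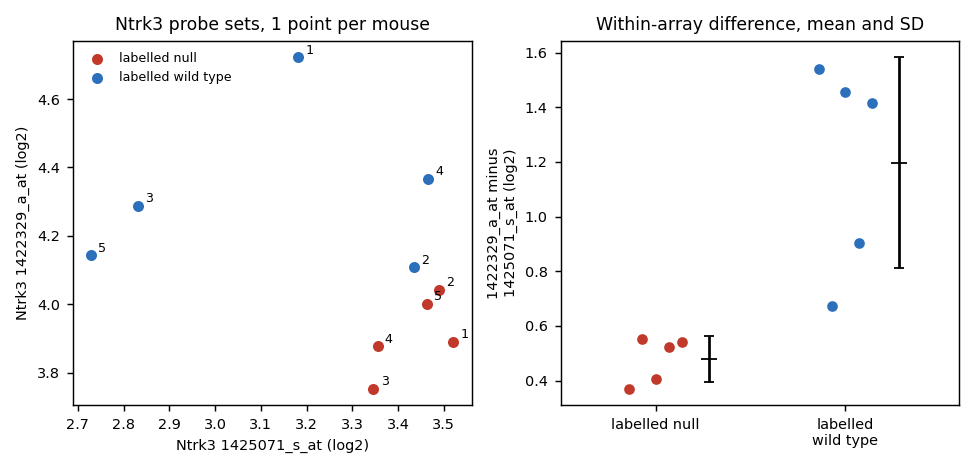
Left, Ntrk3 1422329_a_at (vertical) against 1425071_s_at (horizontal), both log2, 1 numbered point for each mouse; right, their difference within each array with mean and SD (n = 5 each). The 5 arrays labelled null lie between 0.370 and 0.553 on the right, and the 5 labelled wild type between 0.672 and 1.54.

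Over the 10 arrays the 2 Ntrk3 probe sets did not vary together (Pearson r = -0.33, permutation p = 0.348; Spearman rho = -0.30, permutation p = 0.407; r = -0.39 without the 2 arrays farthest from the median), and r was 0.68 among arrays labelled null and 0.16 among arrays labelled wild type, over 5 arrays each. Ntrk3 lies on chromosome 7, as FE65 does. In the order of the 958 measured genes of that chromosome it is 154 genes away from FE65, and 37 genes away from Homer2. Homer2 lies between Ntrk3 and FE65, and the paper found sequence of the stem cell strain there in null mice. The paper did not map the full extent of that sequence, and whether it reaches Ntrk3 was not tested. The 10 measured genes on each side of Ntrk3, chosen after its values were seen, were read by 33 probe sets, of which 3 were higher on arrays labelled null at an unadjusted limma p under 0.05 and 0 lower, beside 1.24% higher and 2.43% lower over all probe sets, with a median difference of 0.005. They read Mrpl46, a protein of the mitochondrial ribosome (0.20, SE 0.08), St8sia2, which adds polysialic acid to neural cell adhesion molecules (0.15, SE 0.05), and Rlbp1, a retinaldehyde-binding protein (0.57, SE 0.25). The St8sia2 and Rlbp1 probe sets are dim, and another St8sia2 probe set differed by 0.06 (SE 0.05).

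Several cell type markers were measured beside Ntrk3. The summed level of a list is the log2 of the sum of its unlogged values, so its brightest genes weigh most. Transthyretin (Ttr), the chief secreted protein of the choroid plexus, read 5.08, 6.37, 6.75, 6.47 and 6.40 on arrays labelled null, against 7.84, 4.99, 5.84, 7.39 and 5.79 on arrays labelled wild type. Arrays 1 and 4 labelled wild type were the highest, and the same 2 arrays were the highest for Ntrk3 1422329_a_at. Of the 6 choroid plexus markers listed 3 were measured, with a summed level of 5.42 to 6.88 on arrays labelled null and 5.35 to 7.90 on arrays labelled wild type; Kl and Folr1 were near the bottom of the scale. Without arrays 1 and 4 labelled wild type, a choice made after seeing the data, 1422329_a_at differed by -0.27 (limma, unadjusted p = 0.00831), 1425071_s_at by 0.44 (unadjusted p = 0.0165) and the pair by -0.70 (exact permutation p = 0.0179). Over the 10 arrays the Pearson r with Ttr was 0.51 for 1422329_a_at and 0.05 for 1425071_s_at. With each group's mean taken out these were 0.69 and 0.12, a description without a test. Of 9 measured oligodendrocyte and myelin markers, 3 were lower on arrays labelled null at an unadjusted p under 0.05 (Mbp, Olig2 and Cldn11), beside 2.61% of all genes by their brightest probe set, with a summed level of 14.32 to 14.48 on arrays labelled null and 14.40 to 14.79 on arrays labelled wild type. Of 9 excitatory neuron markers 5 were measured and none passed, but 4 of the 5 differences were below 0, the median was -0.27 and Neurod6 differed by -0.48 (SE 0.22, limma, unadjusted p = 0.0502). Their summed level was 9.54 to 10.48 on arrays labelled null and 10.01 to 10.62 on arrays labelled wild type. The part of these cell types in the Ntrk3 values was not tested.

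Bdnf, the activity-dependent neurotrophin of cortical excitatory neurons, was read by 2 probe sets of middle brightness. Probe set 1422168_a_at read 6.74, 6.92, 6.76, 7.13 and 7.36 on arrays labelled null, against 7.34, 6.79, 6.91, 7.38 and 7.02 on arrays labelled wild type. The groups overlapped over nearly their whole range, at 6.98 ± 0.26 on arrays labelled null and 7.09 ± 0.26 on arrays labelled wild type, a difference of -0.10 (95% interval -0.43 to 0.22, exact permutation p = 0.508). Arrays 1 and 4 labelled wild type, the 2 with the most Ttr, were again high, and the difference was 0.08 without them. The Pearson r of this probe set with Ttr over the 10 arrays was 0.72, also with each group's mean taken out. Probe set 1422169_a_at read 7.24, 7.39, 7.72, 7.44 and 7.56 on arrays labelled null, against 7.39, 7.88, 7.30, 7.66 and 7.49 on arrays labelled wild type. Its difference of -0.07 lay between -0.34 and 0.19 (exact permutation p = 0.611). The r of 1422169_a_at with Ttr was 0.003, or -0.01 with each group's mean taken out. The intervals leave room for a difference of either sign in both probe sets.

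The 2 Bdnf probe sets shared a gene but not a pattern. Over the 10 arrays their Pearson r was -0.02 (permutation p = 0.963) and Spearman's rho 0.15 (permutation p = 0.682), and without the 2 arrays farthest from the median r was -0.31. Array 2 labelled wild type, for example, had the highest 1422169_a_at of all arrays, at 7.88, and the lowest 1422168_a_at of its group, at 6.79. The pair's within-array difference did not separate the groups (-0.03, 95% interval -0.53 to 0.47, exact permutation p = 0.865). The platform annotation lists the same source sequence for both probe sets, and why their patterns differ was not tested. Bdnf transcripts start at several promoters that are spliced to 1 shared coding exon. The suffix of both probe sets says that their probes match alternative transcripts of the gene. RefSeq gives 7 start windows of 300 bases for Bdnf. One of them holds the core of the cAMP response element, through which the transcription factor CREB acts on Bdnf. The core was searched as TGACGT on either strand (ACGTCA on the other strand), which overlaps the full palindrome TGACGTCA, and occurs in 7.51% of 32851 windows of this length. That window, shown because Creb1 is among the pathway genes measured (-0.06, SE 0.11), lies on the plus strand at chr2:109692186-109692485 of GRCm38.p6, with the core in capitals.

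Bdnf window: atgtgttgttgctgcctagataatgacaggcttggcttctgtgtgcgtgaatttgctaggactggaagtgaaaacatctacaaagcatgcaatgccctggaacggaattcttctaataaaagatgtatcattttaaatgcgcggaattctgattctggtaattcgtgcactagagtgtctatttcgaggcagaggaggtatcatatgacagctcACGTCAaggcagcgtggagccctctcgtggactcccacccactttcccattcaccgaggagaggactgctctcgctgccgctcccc

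The windows of Ntf3 (2), Ngfr (1) and Ntrk2 (1) do not hold these letters. A match is a description of the sequence, and no activity of the window was measured.

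Ntrk2, the TrkB gene, was read by 1 bright and 1 dim probe set. Probe set 1420838_at read 10.76, 10.82, 10.64, 11.08 and 10.93 on arrays labelled null, against 10.77, 10.96, 10.71, 10.87 and 10.64 on arrays labelled wild type. The groups overlapped throughout, at 10.85 ± 0.17 on arrays labelled null and 10.79 ± 0.12 on arrays labelled wild type, and the difference of 0.06 lay between -0.14 and 0.25 (exact permutation p = 0.587). The second probe set, 1420837_at, was near the bottom of the scale at 1.94 ± 0.12 on arrays labelled null and 1.85 ± 0.11 on arrays labelled wild type, a difference of 0.09 (-0.07 to 0.24, exact permutation p = 0.270). Their within-array difference did not separate the groups (0.03, 95% interval -0.19 to 0.26, exact permutation p = 0.794). They had a Pearson r of 0.37 over the 10 arrays (permutation p = 0.298) and a Spearman rho of 0.14 (permutation p = 0.707), and r turned to -0.60 without the 2 arrays farthest from the median, so it rests on those arrays. Astrocytes, where truncated TrkB prevails, were read by 11 of 12 listed markers. Their summed level, in which Aldoc (mean 12.94) and Glul (12.61) weigh most, was 14.36 to 14.54 on arrays labelled null. On arrays labelled wild type it was 14.36 to 14.66. At an unadjusted limma p under 0.05, 1 marker passed, S100b, lower by 0.25 on arrays labelled null. Over all genes by their brightest probe set 2.61% were lower. Of the 11 differences 7 were below 0, with a median of -0.10.

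Ngfr, the p75 receptor gene, was near the bottom of the scale in all 3 probe sets. Probe set 1421241_at averaged 2.04 ± 0.06 on arrays labelled null and 1.99 ± 0.07 on arrays labelled wild type, with a difference of 0.05 (-0.06 to 0.15). Probe set 1450177_at averaged 1.54 ± 0.06 and 1454903_at 2.02 ± 0.05 on arrays labelled null, against 1.49 ± 0.01 and 1.96 ± 0.05 on arrays labelled wild type. All 3 differences were positive, at 0.05, 0.05 and 0.06, and none passed the exact permutation test (p = 0.278, 0.119 and 0.127). The 3 cholinergic markers of the basal forebrain that were measured, Slc5a7, Slc18a3 and Lhx8, were equally near the bottom, with a summed level of 3.19 to 3.39 on arrays labelled null and 3.19 to 3.26 on arrays labelled wild type. No detection calls were used here, so whether any of these values lies above background was not tested. Probe sets 1421241_at and 1454903_at varied together over the 10 arrays (Pearson r = 0.81, permutation p = 0.00462, the 1 of 11 such correlations with a p under 0.05), also without the 2 arrays farthest from the median (r = 0.82), though Spearman's rho of 0.61 had a permutation p of 0.0667.

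The other genes of the pathway were read from 6 lists holding 117 genes, of which 88 were measured, each by its brightest probe set. At an unadjusted limma p under 0.05, 1 was higher and 8 were lower on arrays labelled null, and 0 passed the adjusted test. Over all 12393 genes read this way 3.94% passed, 1.33% higher and 2.61% lower. The 8 lower genes include Ntm, which is neither a Trk receptor nor an adaptor. The median difference of the pathway genes was -0.04, and that over all genes -0.002. The calls were fragile. Quantile normalization brought the split to 3 higher and 2 lower, and the count of 9 was 3 without array 3 labelled wild type, 4 without array 4 labelled null, and 5 without array 2 or array 5 labelled wild type, but 11 (9 lower) without array 1 labelled wild type and 11 (10 lower) with array weights. Among the 7 called genes whose values are given below with an SE, Map2k5 was the 1 that kept an unadjusted p under 0.05 whichever array was left out, and with quantile normalization it too lost it (-0.10, unadjusted p = 0.195).

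Of the ligands and their processing enzymes 11 of 14 were measured, and 1 was lower, Furin, the protease that cleaves proneurotrophins. It read 5.09, 4.97, 5.06, 5.02 and 5.01 on arrays labelled null, against 5.06, 5.14, 5.09, 5.17 and 5.15 on arrays labelled wild type (difference -0.09, SE 0.04). The groups overlapped between 5.06 and 5.09. Plg, the precursor of plasmin, which cleaves proBDNF outside the cell, was at the bottom of the scale and differed by 0.07 (SE 0.05).

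Of the genes that transcribe Bdnf or carry its protein 10 of 13 were measured, with 1 in each direction. Mef2c, a transcription factor of activity-dependent genes, read 12.58, 12.92, 12.81, 12.76 and 12.94 on arrays labelled null, against 12.89, 13.04, 13.10, 12.95 and 12.93 on arrays labelled wild type (difference -0.18, SE 0.07). Dctn1, a subunit of the dynactin complex that links cargo to the dynein motor, read 11.75, 11.87, 11.69, 11.72 and 11.25 on arrays labelled null, against 11.65, 10.65, 11.13, 10.73 and 11.65 on arrays labelled wild type (difference 0.49, SE 0.21). The arrays labelled wild type fell into a low and a high part for Dctn1, and arrays 1 and 5 lay within the range of those labelled null.

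Of the list of the Trk receptors' relatives and adaptors 21 of 26 were measured, and 1 was lower, Ntm. Ntm is a cell adhesion molecule of the IgLON family, neither a Trk receptor nor an adaptor, and no other gene of this list passed. Ntm read 10.57, 10.74, 10.78, 10.69 and 10.94 on arrays labelled null, against 10.83, 10.92, 10.99, 10.88 and 11.01 on arrays labelled wild type (difference -0.18, SE 0.07). Only array 5 labelled null reached the range of those labelled wild type. Cbl, a ubiquitin ligase that takes receptor tyrosine kinases out of use, differed by -0.17 (SE 0.09).

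The kinase cascades downstream of Trk receptors held the most calls, with 4 lower of 17 measured out of 28. Over all genes by their brightest probe set 2.61% were lower. Map2k5, the kinase that activates ERK5, read 7.09, 7.21, 7.07, 7.25 and 7.13 on arrays labelled null, against 7.30, 7.30, 7.41, 7.21 and 7.39 on arrays labelled wild type (difference -0.17, SE 0.05). Array 4 of each label lay in the overlap. Map2k2, an activator of ERK1 and ERK2, was dim and differed by -0.16 (SE 0.06). The remaining calls were Akt1, a survival kinase, at -0.14, and Rps6ka3, a ribosomal S6 kinase downstream of ERK, at -0.29.

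Of the partners of the p75 receptor 16 of 21 were measured, with a median difference of -0.09, and 1 was lower. This was Mapk8ip1, a scaffold of the JNK cascade, which read 10.77, 10.40, 10.30, 10.35 and 10.32 on arrays labelled null, against 10.69, 10.55, 10.81, 10.59 and 10.53 on arrays labelled wild type (difference -0.21, SE 0.09). Array 1 labelled null stood apart from its group, near the top of all arrays. Rhoa, the small GTPase that p75 activates, differed by -0.24 (SE 0.12). Of the genes that BDNF induces 13 of 15 were measured and none passed. Klf10, a TGF-beta-inducible transcription factor, differed by -0.35 (SE 0.19) and Dusp1, a phosphatase of MAP kinases, by -0.29 (SE 0.22). The median of that list was -0.09, with 10 of 13 differences below 0.

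**Figure D4:**
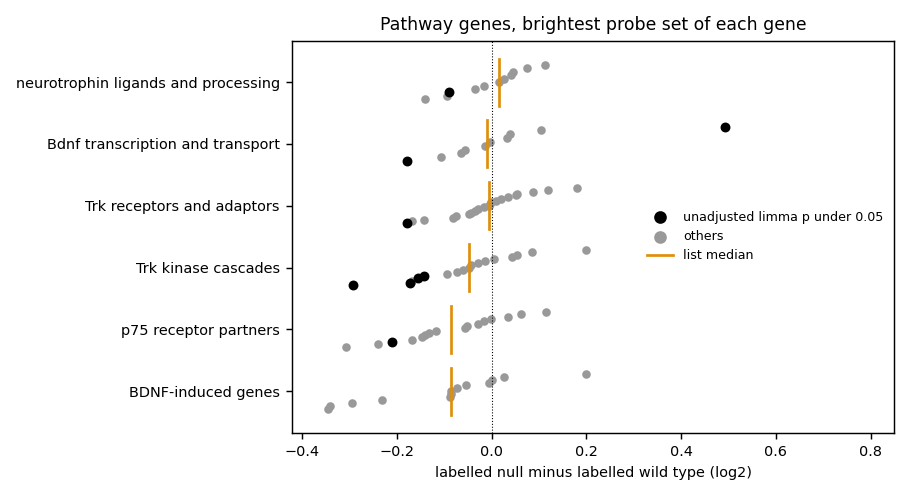
Labelled null minus labelled wild type (log2, horizontal axis) of the 88 measured pathway genes by list, 1 point for each gene, black at an unadjusted limma p under 0.05 and the list median in orange. The 8 black points left of 0 and the 1 right of it, Dctn1 at 0.49, are the calls, and none passed the adjusted test. The 8 include Ntm, which is neither a Trk receptor nor an adaptor.

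For each gene the transcripts whose values ran most like its brightest probe set over the 10 arrays are given as a description, out of 7152 to 7154 probe sets with a mean of at least 5, from which the top values are picked. For Ntrk3 1422329_a_at these were Paqr4 (r = 0.94), Ina, the neuronal intermediate filament protein internexin (0.93), and Pura, a single-stranded nucleic acid-binding protein (0.91). They differed by -0.18, -0.31 and -0.21 between labelled null and labelled wild type. For Bdnf 1422169_a_at they were Frmd5 (0.95), the microtubule-associated kinase Dclk1 (0.90) and Scaf8 (0.90). For Ntrk2 1420838_at they were Ctr9, a subunit of the Paf1 complex (0.88), Cds2 (0.87) and Acd, a shelterin protein of telomeres (0.86). For the dim Ngfr 1421241_at they were the inhibitory Fc receptor Fcgr2b (0.91), Stambp (0.90) and Rfc2, a clamp loader subunit (0.86). All points share the arrays and their normalization.

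None of the 6 control probe sets of Gapdh and Actb passed the exact test. Their exact permutation p ranged from 0.111 to 0.889.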

How the data were processed

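The deposited values are on a log2 scale. The authors produced them by GC-RMA (version not given in the sources used here), which estimates background from the base content of each probe, puts the arrays on a common distribution and condenses the probes of a set into 1 value. GC-RMA compresses dim values, so that small differences near the bottom of the scale carry little. No pooled or other columns were used. Arrays were grouped by their labels alone. The littermate pairs of the study are not given for single arrays, so the fit had no pairing, and that the replicates are separate mice comes from the study's text.

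Of 22690 probe sets, 64 controls were left out and 22626 tested. In the platform annotation 20380 carried a single gene, 691 more than 1 and 1555 no gene. A RefSeq entry was found for 20351 (GRCm38.p6), used for names, chromosomes, gene order and the promoter windows. Each probe set was fitted in limma 3.58.1 (lmFit, eBayes, R 4.3.3) as labelled null minus labelled wild type, p-values were adjusted by Benjamini-Hochberg across the 22626, and 0.05 was the threshold. The number of arrays limits the precision. Single values and within-array differences were tested with exact two-sided permutation tests, and correlations with 100000 permutations. The comparison with all pairs of probe sets of 1 gene, the neighbours of Ntrk3 and the promoter search were added after the data were seen. The fit was tested on simulated data with independent noise, in which changes were put only into probe sets with a mean of at least 5. That test therefore does not cover dim probe sets such as those of Ntrk3.

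The text names every probe set of the 5 genes, the 2 genes with the smallest limma p of each pathway list (by the brightest probe set), the 3 most alike genes for each member, and the Gapdh and Actb controls. Akt1, Rps6ka3, the named markers and the neighbours were named after their values were seen. The members and lists were chosen with earlier results of these data known. The interneuron (9 of 9 measured) and microglia (7 of 7) marker lists had 0 genes at an unadjusted limma p under 0.05. So had the striatal (5 of 8) and hippocampal (6 of 8) lists. Endothelial and mural markers (9 of 9) had 1, Rgs5, lower by 0.24 on arrays labelled null, beside 2.61% of all genes by their brightest probe set. Alternatives were a replicate block, median centring, quantile normalization, a mean of at least 5, a floor at 4, array weights, a robust variance prior with an intensity trend, the methods' t-test, and leaving out arrays.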

Additional observations from a re-analysis of the deposited data

Results flagged for a closer look

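In groups of 5 arrays, the 44 sets of values examined (each member probe set and each pair, by label) gave 2 in which 1 array stood apart from the rest beyond Dixon's critical value of 0.71. About 1 in 20 such groups is picked by chance. For Ngfr 1454903_at, array 2 labelled wild type read 2.04, where the next of its group read 1.95; the probe set is near the bottom of the scale. For the within-array difference of Ntrk3 1422329_a_at minus 1426003_at, array 1 labelled wild type was at 2.86, where the next was at 2.26. Without that array the Ntrk3 pair differed by -0.23 between labelled null and labelled wild type (exact permutation p = 0.0238).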

How the results depend on the processing

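The difference of Ntrk3 1422329_a_at kept its direction and an unadjusted p under 0.05 in all 18 alternatives that kept the probe set (-0.47 to -0.27, p 0.00172 to 0.0202), and no member passed the adjusted test in any. Ntrk3 1425071_s_at passed an unadjusted p under 0.05 in 8 of 17. The 3 Ntrk3 pairs without overlap had an exact p under 0.05 in 12 of 13 alternatives each. The exception is the replicate block. The numbers in the titles are not shown to pair the mice (correlations of deviations 0.0664 to 0.535, 4 of 5 over 0.1, and 1 of 5 arrays of each label correlating best with its own number). With the block 2 members passed, 10 pathway genes were lower and 0 higher, and 0 pairs passed, as the smallest exact p of 5 paired differences is 0.0625. In limma with the block, Dctn1 (unadjusted p = 0.0763) and Furin (0.110) did not pass and Cbl (0.0290) did. The count of members passing (1) was 2 with median centring, quantile normalization, a robust prior with an intensity trend, array weights and without arrays 1 and 4 labelled wild type, and 0 with a mean of at least 5, which leaves out every Ntrk3 probe set. Pathway calls (9, of which 8 lower and 1 higher) were 5 (2 lower, 3 higher) with quantile normalization, 3 (2 lower) with a mean of at least 5, and 5 (5 lower, 0 higher) with a floor at 4; 5 were lower with an intensity trend, 5 lower and 3 higher without arrays 1 and 4 labelled wild type, and 0 higher with median centring and with the t-test. The count of correlated pairs (1) was 0 with quantile normalization. Leaving out 1 array in turn gave 1 to 2 members, 3 to 11 pathway genes (3 to 9 lower, 0 to 2 higher), 3 to 5 pairs and 1 to 2 correlations. Over all probe sets the count at an unadjusted p under 0.05 ran from 354 (mean of at least 5) to 1655 (without array 5 labelled null). Apart from what construction explains (fewer probe sets or arrays), the cause was not tested.

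The signs that turned belong to values that passed no test. Bdnf 1422169_a_at was 0.00343 and Ntrk3 1425070_at -0.00298 with quantile normalization, the Ntrk2 pair -0.0295 with quantile normalization, and without arrays 1 and 4 labelled wild type Bdnf 1422168_a_at was 0.0760 and the Bdnf pair 0.16. Leaving out 1 array, Bdnf 1422169_a_at ranged from -0.136 to 0.0118, Ntrk2 1420838_at from -0.000364 to 0.11, Ntrk3 1425070_at from -0.00310 to 0.0218, the Bdnf pair from -0.190 to 0.0876, the Ntrk2 pair from -0.0289 to 0.0759, the Bdnf correlation from -0.25 to 0.29 and the Ntrk2 correlation from -0.0739 to 0.554. The pair comparisons were not run with median centring, which leaves them as they are, and a pair or correlation with a probe set wholly at the floor gave no value, which left the Bdnf pair alone under that setting.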
